A study of Mus musculus with 2 samples.

Results

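The genes described here are the growth hormone receptor Ghr, the growth factor Igf1, its receptor Igf1r and 6 genes of insulin-like growth factor (IGF) binding proteins, Igfbp2, Igfbp3, Igfbp4, Igfbp5, Igfbp6 and Igfbp7. They were taken by gene symbol, as every probe set to which the platform annotation gives 1 of these symbols and no other. This found all 9 genes on 27 probe sets, among 18193 genes and 45037 probe sets in all. The imprinted genes Igf2 and Igf2r of the same axis are not part of the group.

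Whole heads of newborn mice were profiled on 2 Affymetrix expression arrays. Both heads came from offspring of mice with T(2:9)11H, a reciprocal translocation of Chr 2 and Chr 9. The MatDp(dist2) head carried a maternal duplication of distal Chr 2, beyond the T11H breakpoint, together with a paternal duplication of distal Chr 9. The PatDp(dist2) head had a paternal duplication of distal Chr 2 and a maternal duplication of distal Chr 9. There was 1 array of each genotype and no head without a duplication is analysed here, so no value below has a replicate and no test was possible. How many animals went into a sample, and of which sex, is not stated by the labels. None of the 9 genes lies on the duplicated chromosomes: in the RefSeq gene table Ghr and Igfbp6 are on Chr 15, Igf1 on Chr 10, Igf1r on Chr 7, Igfbp2 and Igfbp5 on Chr 1, Igfbp3 and Igfbp4 on Chr 11, and Igfbp7 on Chr 5. Their own parental copies were therefore not changed by the translocation's duplications.

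Growth hormone from the pituitary binds its receptor on liver, muscle, fat and cartilage cells, where the kinase JAK2 and the transcription factors STAT5A and STAT5B carry the signal, and Igf1 is a main target. Many tissues also make Igf1 for local use, and growth before and around birth depends on IGFs more than on growth hormone. Binding proteins hold most IGF outside cells, prolong its life and hand it to the receptor or keep it away, and proteases that cut them release it.

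The values are MAS5 signals, which are linear intensities, and each ratio has MatDp(dist2) as numerator and PatDp(dist2) as denominator. Where a pair of signals or sums is given, that of MatDp(dist2) comes first. Signals under a floor of 187, the mean of the medians of both arrays, were not read as levels. Of the 27 probe sets 23 were not under the floor on either array and 4 were below it on both. Each of the 9 genes had at least 1 probe set above it. Signals of different probe sets are not set against each other, since each probe set has its own brightness.

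No gene of the group was 2-fold apart between the heads. Of 9 genes, each read on its brightest probe set, 0 were at least 2-fold higher in MatDp(dist2), where 4.43% of the 12483 measured genes (those reaching the floor on at least 1 array) were, and 0 were at least 2-fold higher in PatDp(dist2), where 3.47% were. The same held for each of the 23 probe sets. The signals of 6 genes were higher in PatDp(dist2), Ghr, Igf1, Igfbp3, Igfbp4, Igfbp6 and Igfbp7, and those of 3 were higher in MatDp(dist2), Igf1r, Igfbp2 and Igfbp5. These directions held under median centring, quantile normalization and a loess fit, and that of Igfbp3 turned when its probe sets were averaged. The median log2 ratio of the 9 genes was -0.31, against 0.02 over all measured genes, and it was -0.09 after quantile normalization, -0.14 after the loess fit and -0.17 with the mean over probe sets. At 1.5-fold, 1 of 9 genes was higher in MatDp(dist2) (Igfbp2), against 12.0% of measured genes, and 2 were higher in PatDp(dist2) (Ghr and Igfbp6), against 10.8%. Igfbp2 lost that call after median centring and with an offset of 100 added to each signal. With 9 genes, counts this small do not set the group apart from the background.

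**Figure D1:**
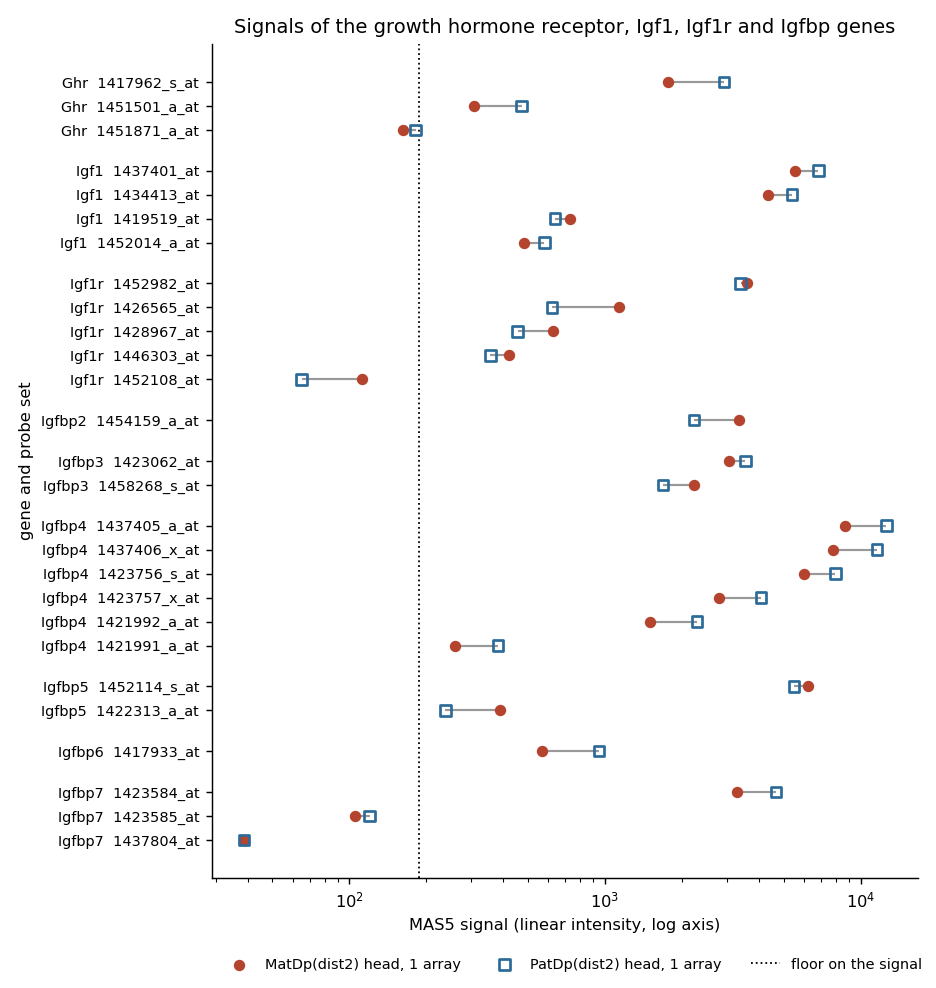
Deposited MAS5 signal (log axis) of each of the 27 probe sets in MatDp(dist2) (filled circles) and PatDp(dist2) (open squares), 1 array each, grouped by gene; the dotted line is the floor of 187. All 6 Igfbp4 probe sets lie higher in PatDp(dist2) and all Igf1r probe sets lie higher in MatDp(dist2), while those of Igf1 and Igfbp3 lie on both sides.

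With 1 array per genotype, the nearest thing to a repeated measurement was a gene with several probe sets. These read RNA of the same gene through different probes, and may read different transcripts of it. Of 4369 genes with at least 2 probe sets not under the floor on either array, 59.4% had all of them on the same side of equality, and the SD of the log2 ratio between probe sets of a gene had a median of 0.22. Of the 6 genes of the group with that many, 4 had all of them on the same side, Ghr, Igf1r, Igfbp4 and Igfbp5, and the SD had a median of 0.29 over the 6. This spread covers probes, and possibly transcripts, and not animals. The ratio also moved with brightness: over all probe sets its median on the log2 scale was 0.13 at a mean log2 signal of 8 to 9 and -0.15 at 12 to 15. Each ratio below is therefore also given beside the 10th to 90th percentile of probe sets in its band of mean log2 signal, and 5 of the 23 ratios lay outside it, where 20.0% of all probe sets did.

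For these 4 genes, whose probe sets agreed in direction, the 100 bases before each annotated start show how different their promoters are. The sequences are RefSeq's, on GRCm38.p6, printed 5′ to 3′ on the gene's strand. Capitals mark TATAAA, the core of the TATA box, and GGGCGG, the core of the GC box, searched on both strands.
Ghr at chr15:3583353-3583452, minus strand: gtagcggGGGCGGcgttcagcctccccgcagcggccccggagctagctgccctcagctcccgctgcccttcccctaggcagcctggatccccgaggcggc
Ghr, its other start, at chr15:3581843-3581942, minus strand: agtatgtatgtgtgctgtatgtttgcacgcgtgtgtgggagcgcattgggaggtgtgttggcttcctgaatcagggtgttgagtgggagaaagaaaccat
Igf1r at chr7:67952157-67952256, plus strand: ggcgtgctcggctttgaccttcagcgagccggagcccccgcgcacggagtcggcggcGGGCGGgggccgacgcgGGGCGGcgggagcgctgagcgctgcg
Igfbp4 at chr11:99041144-99041243, plus strand: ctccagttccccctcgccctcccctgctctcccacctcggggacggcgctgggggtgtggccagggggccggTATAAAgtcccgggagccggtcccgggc
Igfbp5 at chr1:72874866-72874965, minus strand: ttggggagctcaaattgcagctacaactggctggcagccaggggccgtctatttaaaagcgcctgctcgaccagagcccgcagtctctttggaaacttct

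Igfbp4 has TATAAA beginning 28 bases before its start, and Igf1r has no TATAAA here but 2 GC boxes, beginning 43 and 26 bases before its start, in a stretch with 81.0% G and C. The 2 starts of Ghr differ, with 76.0% G and C at one and 50% at the other, and Igfbp5 has neither motif in the stretch shown. All 9 genes had a window of 250 bases before to 50 after a start, 11 windows in all. TATAAA was in 3 of the 11 windows, of Ghr, Igfbp4 and Igfbp6, and in 13.6% of all 32851 windows. GGGCGG was in 4, of Ghr, Igf1r, Igfbp2 and Igfbp7, and in 35.7% of all. TTCNNNGAA, the letters that STAT5 binds, was in 0 of 11 and in 8.30% of all windows, which says only that these letters are not in these windows. In Ghr and Igfbp6 TATAAA lay further from the start than the bases shown. The 3 genes with TATAAA were all higher in PatDp(dist2) and the 4 with GGGCGG lay in both directions, a description of few genes from which nothing is drawn. The arrays read transcript levels and not promoter activity, and which start was used was not analysed here.

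Ghr, the receptor for growth hormone, was higher in PatDp(dist2). The brightest of its probe sets, 1417962_s_at, read 1767.6 in MatDp(dist2) and 2923.1 in PatDp(dist2), a log2 ratio of -0.73 or 1.65-fold higher with the paternal duplication. A second, 1451501_a_at, had 306.1 and 472.1, a log2 ratio of -0.63 or 1.54-fold. The third, 1451871_a_at, was below the floor in both heads, with 162.8 and 181.8. Both ratios stood at the low edge of probe sets of like brightness, the first, at -0.726, just inside the 10th percentile of -0.733 and the second outside the 10th percentile of -0.47. The gene also makes a soluble binding protein by alternative splicing, and the probe sets were not assigned to transcripts here. In RNA from a whole head, fewer cells of a type and less RNA per cell cannot be told apart, here and in the ratios below.

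Markers of fat and muscle, tissues that carry the receptor, were higher in the same head. All 5 measured fat markers were higher in PatDp(dist2), 4 of them at least 2-fold, and their summed signals were 22700.0 against 55888.3 there, with 1 of the 5 below the floor in MatDp(dist2). All 8 skeletal muscle markers were also higher there, none of them 2-fold, with sums of 98167.5 and 118424, and 0 below the floor. The median log2 ratio of the muscle list was -0.31. Bright probe sets as a whole leaned the same way, with a median of -0.15 at a mean log2 signal of 12 to 15. Cartilage, also named above for the receptor, went the other way. All 6 of its markers were higher in MatDp(dist2), with sums of 7318.9 and 4022.1. The part of these lists in the Ghr ratio was not tested. Liver, where Ghr is most abundant, gave little signal: of 5 liver markers on the arrays, albumin (Alb), Apoa1 and Fgb were below the floor in both heads. The sums for this list were 13376.7 and 677.9, and the former is mostly Ttr, which the choroid plexus also makes.

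Igf1, the ligand of the axis, differed little. Its brightest probe set, 1437401_at, read 5517.0 in MatDp(dist2) and 6835.6 in PatDp(dist2), a log2 ratio of -0.31 or 1.24-fold higher in the latter. Probe set 1434413_at gave the same ratio from 4349.5 and 5376.5, and 1452014_a_at gave -0.27 from 480.8 and 578.5. The fourth, 1419519_at, went the other way, with 728.5 and 636.3, a log2 ratio of 0.20. The mean over the 4 probe sets was -0.17 ± 0.25 (SD, n = 4 probe sets), so their spread was wider than the difference. All 4 ratios lay inside the 10th to 90th percentile of probe sets of like brightness.

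Igf1r, the tyrosine kinase receptor of Igf1, was higher in MatDp(dist2) on each of its 4 measured probe sets, by amounts that differed widely. The brightest, 1452982_at, read 3601.4 in MatDp(dist2) and 3391.5 in PatDp(dist2), only 1.06-fold apart. Probe set 1426565_at had 1136.8 and 619.7, 1.83-fold, the largest difference of any probe set of the group and above the 90th percentile of its band, 0.70 on the log2 scale against its own 0.88. Between them were 1428967_at, with 624.2 and 455.3 (1.37-fold), and 1446303_at, with 421.6 and 356.0 (1.18-fold). The mean log2 ratio was 0.42 ± 0.34 (SD, n = 4 probe sets), and 1452108_at was below the floor in both heads, with 111.8 and 65.1. A reading of the gene by its brightest probe set alone would therefore show almost no difference. In the annotation 1452982_at and 1428967_at share a transcript record, so the 4 are not fully separate readings.

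Markers of neurons, which express Igf1r, were higher in the same head and by more. All 8 neuron markers were higher in MatDp(dist2), 6 of them at least 2-fold, with summed signals of 28566.8 and 12579.7 and none below the floor. Lists of other tissues lay in both directions. Among them, cartilage markers (6 of 6) were higher in MatDp(dist2), and skeletal muscle (8 of 8) and fat markers (5 of 5) were higher in PatDp(dist2). The part of these lists in the Igf1r ratios was not tested.

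The 6 binding protein genes split between the heads, with a median log2 ratio of -0.36 and a range from -0.74 to 0.59. Igfbp4, Igfbp6 and Igfbp7 were higher in PatDp(dist2), Igfbp2 and Igfbp5 were higher in MatDp(dist2), and the probe sets of Igfbp3 disagreed.

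Igfbp4, a binding protein that mostly restrains IGF and is cut by the protease PAPPA, gave the most uniform reading of the group. All 6 of its probe sets were higher in PatDp(dist2), between 1.33-fold and 1.53-fold, although their signals there reached from 381.8 to 12590.1. The brightest, 1437405_a_at, had 8680.7 in MatDp(dist2) and 12590.1 in PatDp(dist2), 1.45-fold. Probe set 1437406_x_at had 7781.6 and 11588.7, and 1423756_s_at had 5986.5 and 7959.6. The dimmer 1423757_x_at had 2781.0 and 4078.4, 1421992_a_at had 1498.3 and 2287.6, and 1421991_a_at had 258.3 and 381.8. The heads thus kept their order at every brightness, with a mean log2 ratio of -0.54 ± 0.07 (SD, n = 6 probe sets), a spread of under the median of 0.22 between probe sets of a gene. In the annotation the 6 form 3 pairs that share a transcript record, so they are not fully separate readings. Bright probe sets as a whole leaned towards the PatDp(dist2) head: relative to the medians of their bands the 6 log2 ratios lay between -0.26 and -0.70, and 5 of the 6 were inside the 10th to 90th percentile.

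Igfbp6, which binds IGF2 in preference to IGF1, was lower in MatDp(dist2) by about as much as Ghr. Its single probe set, 1417933_at, read 564.7 in MatDp(dist2) and 946.3 in PatDp(dist2), 1.68-fold higher in the latter. The log2 ratio of -0.74 was below the 10th percentile of -0.54 in its band. With 1 probe set there is no second reading of this gene.

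Igfbp7, which binds IGF only weakly and is laid down by vessel walls, was 1.42-fold higher in PatDp(dist2) on 1423584_at, with signals of 3270.0 and 4658.4. Its other probe sets, 1423585_at (105.7 and 120.2) and 1437804_at (38.9 and 38.7), were below the floor in both heads. The log2 ratio of -0.51 was inside the 10th to 90th percentile of its band. All 6 endothelial markers were higher in PatDp(dist2) as well, 1 of them at least 2-fold, with summed signals of 3642.2 and 5704.6, and so were all 5 markers of pericytes and smooth muscle, with 13085.5 and 17531.3. None of these 11 markers was below the floor in either head, and their part in the Igfbp7 ratio was not tested.

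Igfbp2, a binding protein of the developing brain and its fluid spaces, was the gene of the group with the largest fold in favour of the MatDp(dist2) head on brightest probe sets. Its single probe set, 1454159_a_at, had signals of 3339.6 and 2223.5, 1.502-fold, and the log2 ratio of 0.59 was above the 90th percentile of 0.45 in its band. Markers of astrocytes and radial glia were divided, 3 of 5 measured ones higher in MatDp(dist2) and 2 higher in PatDp(dist2). Of these, 0 were at least 2-fold higher in MatDp(dist2) and 1 in PatDp(dist2). Their sums were 14729.7 and 10720.1, with Gfap below the floor in both. All 3 measured choroid plexus markers were higher in MatDp(dist2), with sums of 14097.5, mostly Ttr, and 981.3, while Kl and Folr1 were below the floor in both. Their part in the Igfbp2 ratio was not tested.

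Igfbp5, a binding protein of bone, muscle and connective tissue that attaches to matrix, was slightly higher in MatDp(dist2). The bright probe set 1452114_s_at had signals of 6230.3 and 5479.7, 1.14-fold. The dim 1422313_a_at had 386.9 and 237.2, 1.63-fold, near the floor in PatDp(dist2). The mean log2 ratio was 0.45 ± 0.37 (SD, n = 2 probe sets), and both lay inside the 10th to 90th percentile of their bands. Cartilage markers were higher in the same head, 6 of 6, with sums of 7318.9 and 4022.1 and 2 of them below the floor in PatDp(dist2). Bone markers went the other way, 4 of 4, with sums of 12462.3 and 13403.8 and none below the floor. Their median log2 ratio was -0.13. That of all probe sets at a mean log2 signal of 12 to 15 was -0.15, but the bands of the bone markers were not worked out. Skeletal muscle markers were also higher in PatDp(dist2), 8 of 8, and fibroblast and meninges markers were divided, 3 of 6 each way. The part of these lists in the Igfbp5 ratio was not tested. Igfbp5 and Igfbp2 are neighbours on Chr 1 with no other protein-coding gene between them in the RefSeq table, and both were higher in MatDp(dist2).

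Igfbp3, the main carrier of IGF in blood, had no settled direction. Probe set 1423062_at had signals of 3043.0 and 3535.6, 1.16-fold higher in PatDp(dist2), and 1458268_s_at had 2231.7 and 1684.7, 1.32-fold higher in MatDp(dist2). The mean log2 ratio was 0.09 ± 0.44 (SD, n = 2 probe sets), and both ratios lay inside the 10th to 90th percentile. Its neighbour Igfbp1, a binding protein mostly of liver, was below the floor in both heads, with 14.3 and 10.5.

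**Figure D2:**
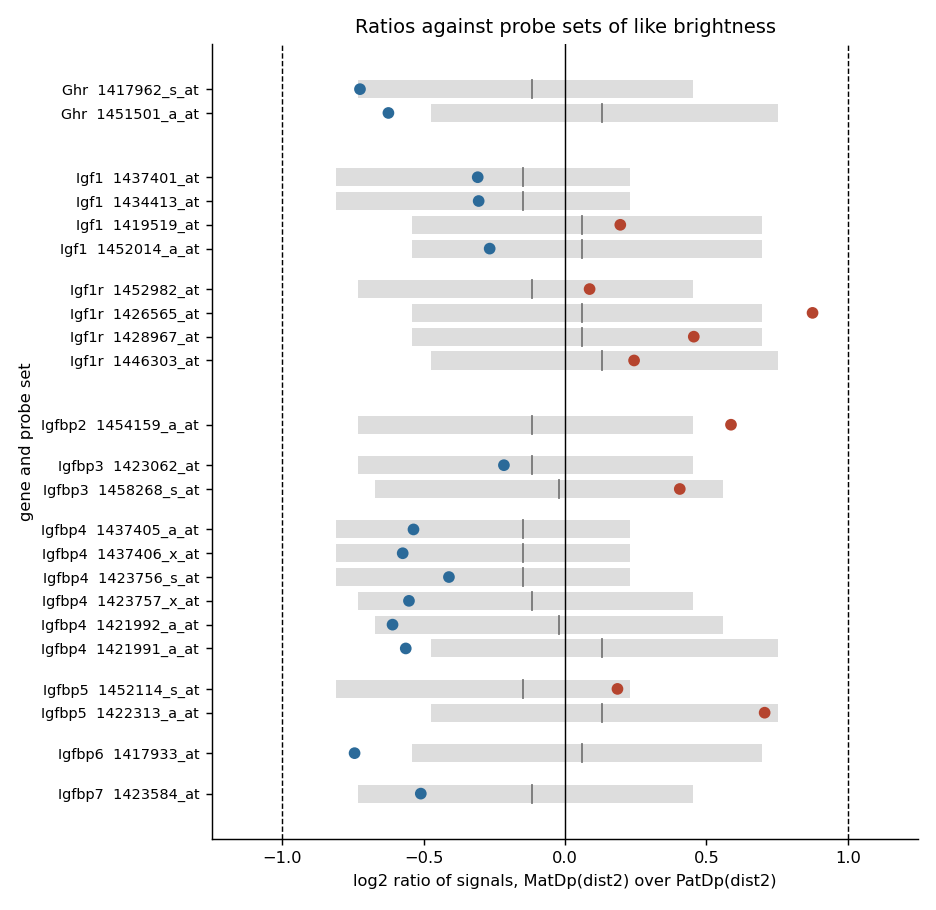
Log2 ratio of signals, MatDp(dist2) over PatDp(dist2), for the 23 probe sets not under the floor on either array (points), with the 10th to 90th percentile (grey bar) and median (grey line) of all probe sets in the same band of mean log2 signal; dashed lines mark 2-fold. The 5 points outside their bars are those of Ghr 1451501_a_at, Igf1r 1426565_at, Igfbp2, Igfbp4 1421991_a_at and Igfbp6, and none reaches 2-fold.

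**Figure D3:**
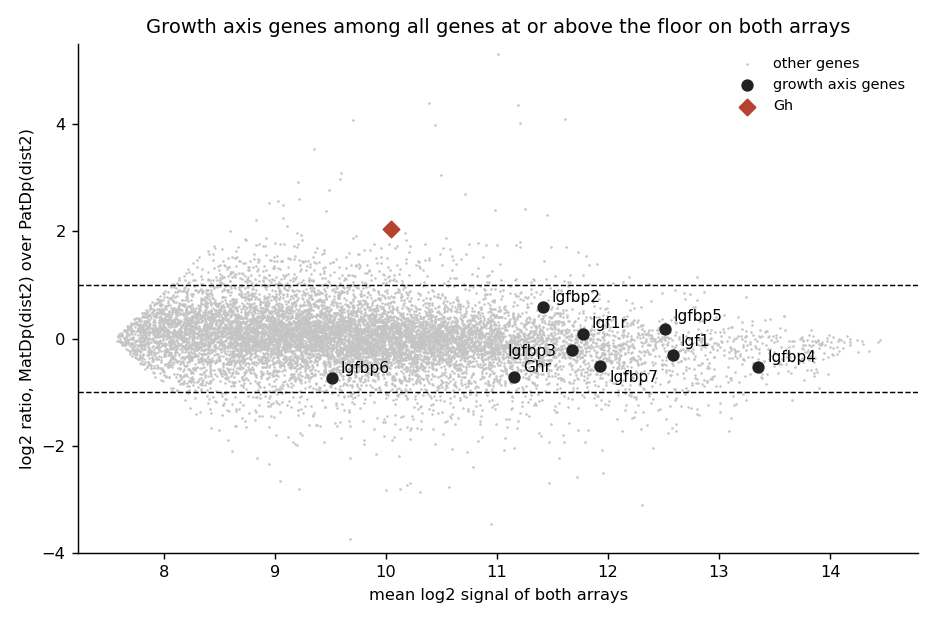
Log2 ratio against the mean log2 signal of both arrays for the 11270 genes not under the floor on either, 1 brightest probe set each, with the 9 genes in black and Gh as a diamond; dashed lines mark 2-fold. The 9 genes lie between -0.74 and 0.59, and Gh lies at 2.05.

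Growth hormone itself was further apart between the heads than the 9 genes. Gh, the pituitary hormone, was higher in MatDp(dist2) on all 4 of its probe sets. Probe set 1456595_x_at had signals of 2145.8 and 518.9 (4.14-fold), 1460613_x_at had 2306.3 and 464.0 (4.97-fold), 1437522_x_at had 1792.1 and 463.9 (3.86-fold), and 1460310_a_at had 1786.5 and 454.8 (3.93-fold). In the same heads the receptor Ghr was 1.65-fold higher in the opposite direction on its brightest probe set. Igf1 was 1.24-fold higher in PatDp(dist2) on its brightest probe set, but 1 of its 4 probe sets went the other way. Its mean log2 ratio of -0.17 was smaller than the SD of 0.25 between them. The suffix x marks probes that can also bind related sequences, and growth hormone belongs to a family of similar genes. Sst, which encodes the inhibitor of growth hormone release somatostatin and is also made by many neurons, had signals of 968.9 and 371.9, 2.61-fold higher in MatDp(dist2). Ghrhr, the pituitary receptor for the releasing hormone, had 201.6 in MatDp(dist2) and 76.4, below the floor, in the other, for a bound of at least 1.08-fold. With the floor at the 30th percentile both of its signals were measured, and it was past 2-fold. Ghrh and Ghsr were below the floor in both heads. No pattern of 2 arrays can show which genes vary with the 9, so none is named for being alike.

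In the wider pathway few genes were 2-fold apart. Of 40 listed genes, 37 were on the arrays and 30 were measured. At least 2-fold higher in MatDp(dist2) were 3, against 4.43% of measured genes, and 0 were at least 2-fold higher in PatDp(dist2), against 3.47%. Besides Gh and Sst the 3 included Igfbpl1, a gene related to the binding proteins, at least 2.27-fold higher from 425.4 and 80.1, with its other probe set at 485.8 and 10.3. Signals were higher in MatDp(dist2) for 15 of the 30 genes and in PatDp(dist2) for 15.

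Among the genes that carry the signal of Ghr, 0 of 6 measured were 2-fold apart, and the largest difference was that of Socs3, an inhibitor of JAK signalling, with 448.1 and 715.2, a log2 ratio of -0.67. Those signals were of 1456212_x_at, and 1455899_x_at lay in the same direction, with 429.9 and 614.7. Another of the Socs3 probe sets, 1416576_at, went the other way, with 451.2 and 360.2. Among carriers, proteases and their inhibitors, Igfbpl1 was the 1 of 6 measured genes past 2-fold, and the carrier subunit Igfals was below the floor in both heads, like Igfbp1. For the insulin receptor and its relative, Insr had 893.9 and 1211.8, 1.36-fold higher in PatDp(dist2), and Insrr was below the floor. Below the IGF receptor 0 of 14 measured adaptors and kinases were 2-fold apart, with a median log2 ratio of -0.23. The largest difference there was that of Grb14, an adaptor that inhibits insulin receptor signalling, with 635.4 and 1015.8, 1.60-fold higher in PatDp(dist2). Grb14 lies on Chr 2. Other listed pathway genes also lie on Chr 2 or Chr 9, and no position relative to the T11H breakpoint was analysed here. At 1.5-fold, 4 of the 30 measured pathway genes outside the group were higher in MatDp(dist2) and 6 in PatDp(dist2), against 12.0% and 10.8% of measured genes.

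**Figure D4:**
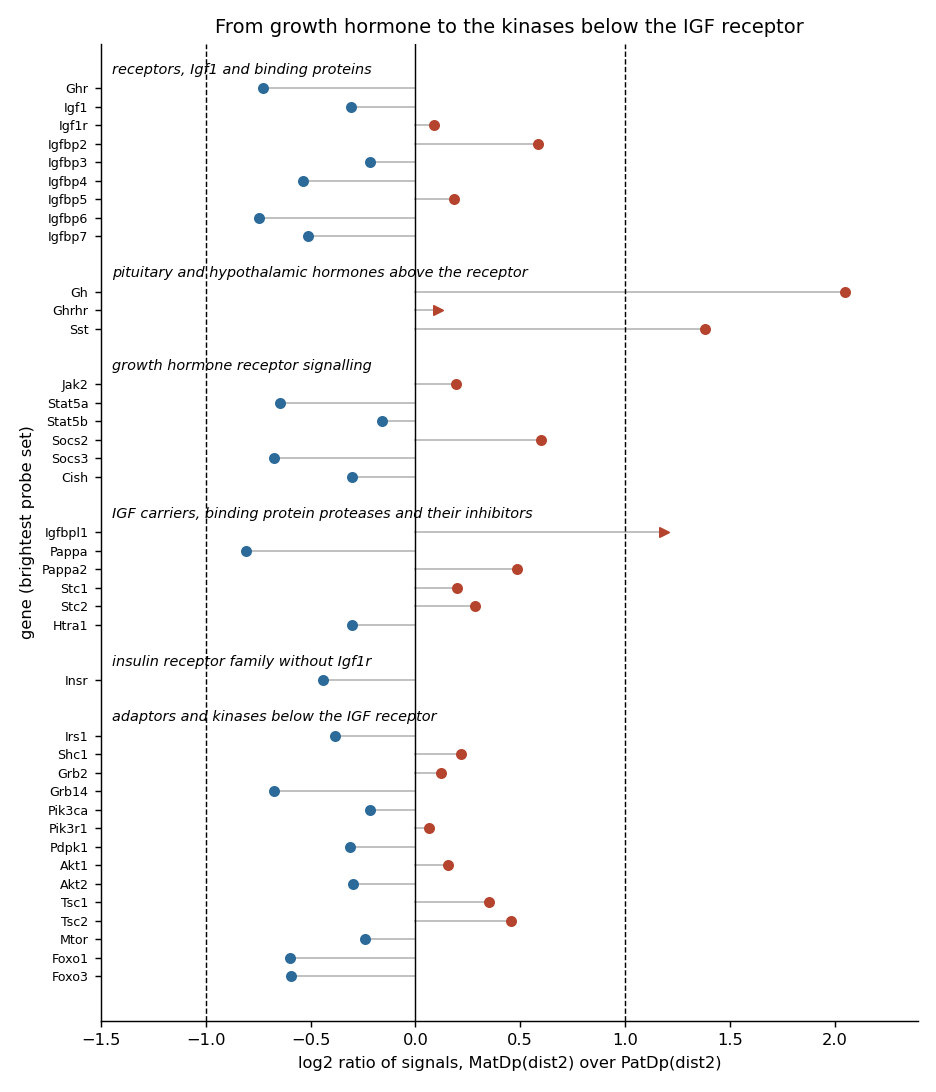
Log2 ratio of signals, MatDp(dist2) over PatDp(dist2), for the brightest probe set of each measured gene, from the 9 genes at the top through hormones, receptor signalling, carriers and proteases to the kinases below the IGF receptor; triangles are bounds for genes below the floor on 1 array, and dashed lines mark 2-fold. Gh, Sst and Igfbpl1 are the 3 genes past 2-fold, all towards the MatDp(dist2) head.

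The arrays carried the same trimmed mean signal, 500.002, with medians of 200.8 (MatDp(dist2)) and 173.3 (PatDp(dist2)). Against the label of a whole head, all neuron and skeletal muscle markers were above the floor in both samples, while all 5 lens markers were below it in PatDp(dist2), with summed signals of 23984.8 and 193.5. Epidermis markers were higher in MatDp(dist2), 6 of 6, with sums of 40335.5 and 6206.4. White blood cell markers were higher in PatDp(dist2), 6 of 6, with 5448.5 and 9561.1. Fibroblast and meninges markers were divided, 3 of 6 each way, with 52201.6 and 55110.9. Of 2 red blood cell markers on the arrays, 1 was measured, with sums of 2013.0 and 1694.7. Single marker genes were not set against their bands of brightness, and only the muscle and bone medians were given beside the median of a band. The part of these lists in the 9 ratios was not tested.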

How the data were processed

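The 9 genes and the lists of pathway and marker genes were chosen with earlier results of these data known. The deposited signals, linear intensities of 45101 probe sets per array, were made by the authors with MAS5 and GCOS, per the submitters' processing notes (no versions named). They carry a scaling of each array to one trimmed mean, and MAS5 values are noisy when dim. From them log2 ratios were computed in Python 3.11.15 with pandas 2.3.3. The floor was the median of both arrays' 50th percentiles. Where 1 array lay below it, the brighter signal over the floor is a bound. Of the probe sets, 34945 had 1 symbol, and 34741 of these a gene ID in a RefSeq table for GRCm38.p6, used for names, chromosomes and gene order. The files name no build. Each gene was read on its brightest probe set by mean log2 signal, and every probe set of the 9 genes is given. Named pathway genes were those past 2-fold or, in a list without any, the one with the largest ratio; others are given as bounds, as genes below the floor or as second probe sets. Alternatives were median centring, quantile normalization, a loess fit (span 0.3), floors at the 30th and 70th percentiles, an offset of 100, the mean over probe sets, and thresholds of 1.5-fold and 3-fold. The calculations were tested on simulated data. With 1 array per genotype there is no test.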

Additional observations from a re-analysis of the deposited data

How the results depend on the processing

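The count of genes of the group past 2-fold was 0 in each direction under all 7 alternatives (3 scalings, 2 floors, the offset and the mean over probe sets) and at 3-fold. The floors, the offset and the 3-fold threshold could not have raised it from 0. At 1.5-fold there was 1 for MatDp(dist2) and 2 for PatDp(dist2). The former, Igfbp2, is just past 1.5-fold, and its log2 ratio of 0.59 fell short of it after median centring (0.55) and with the offset of 100 (0.57). The median log2 ratio of -0.31 was -0.087 with quantile normalization, -0.14 with the loess fit and -0.17 with the mean over probe sets, and kept its sign under all. Of 198 single ratios recomputed, 1 changed sign, that of Igfbp3, which was 0.09 with the mean over probe sets. An offset or a floor cannot change a sign, and apart from that mean the gene ratios repeat those of the brightest probe sets. The 198 are therefore not separate checks. Among pathway genes past 2-fold, the 3 higher in MatDp(dist2) were 1 (Gh) at 3-fold, and the 0 higher in PatDp(dist2) were 6 at 1.5-fold, beside 4 higher in MatDp(dist2). With the lower floor Ghrhr joined the genes past 2-fold, for 4. Igfbpl1 was under 2-fold with the offset of 100 and had no ratio with the higher floor or when probe sets were averaged, which uses only those measured on each array. No paired analysis was possible because each genotype has 1 array. Dim probe sets limit what can be read: 4 of the 27 gave no ratio, and with 1 array per genotype the spread between animals is unknown.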
